A study of Mus musculus with 28 samples.

Results

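The difference between heart and cortex in the effect of a Sepsecs mutation at birth was measured in 12 of the 28 libraries of the series. These 12 are all libraries of postnatal day 1 (P1), and they form 4 groups of 3 C57BL/6J mice each: heart and cortex labelled Y334C WT (controls), and heart and cortex labelled Y334C MT (mutants). The mutants carry Y334C, a mutation known from patients, in Sepsecs (selenocysteine synthase), and no other allele or treatment is named for any of the 4 groups. The labels give neither the zygosity of the mutants nor the litter, and do not say whether a heart and a cortex came from the same mouse. The quantity under test was the heart effect (mutant minus control) minus the cortex effect, as a log2 fold, together with each tissue's own effect and their average. Of 55416 listed genes, 15157 had enough reads to be tested.

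Sepsecs completes selenocysteine on its tRNA, and that amino acid is built into selenoproteins such as glutathione peroxidases and thioredoxin reductases. When selenocysteine is short, ribosomes stall or end at the UGA codon, and mRNAs of some selenoproteins, among them Selenow, Selenoh and Gpx1, are broken down, while others are spared. Stalled or amino-acid-starved cells can switch on the integrated stress response, in which the factor ATF4 induces genes for amino acid supply. Heart and brain both rely on the selenoprotein Gpx4, which removes lipid peroxides.

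The question was which genes had an effect of the mutation in both tissues, in opposite directions, or in 1 tissue. The selenoprotein mRNAs Selenow and Selenoh fell in mutant heart, by 1.89 ± 0.24 and 1.58 ± 0.22 on the log2 scale (SE, 3 mutants against 3 controls), and were lower in mutant cortex as well. At an unadjusted p under 0.05, 8 of 42 stress-response genes, among them Asns, were higher in heart and 0 in cortex (2.03% and 0.449% of all genes), and 9 of 27 genes of cholesterol synthesis, among them Sqle, were lower in heart and 0 in cortex (2.75% and 0.950%). Of 12 endothelial genes 5, among them Tie1, were lower in cortex and 0 in heart (0.950% and 2.75% of all genes), and the 5 became 1 without cortex mutant 3. The lists were chosen with earlier results of these data known, so list counts here and below are a description and not a test. No gene had a difference between the tissues that held up over all genes tested. A gene was called where its Benjamini-Hochberg adjusted p over the 15157 genes was under 0.05 in the edgeR quasi-likelihood test. By that rule the difference of effects was called for 0 genes (0%), the heart effect for 2 (0.0132%), the cortex effect for 0 (0%) and the average effect for 2 (0.0132%). Both calls, in heart and in the average, were Selenow and Selenoh. At an unadjusted p under 0.05 the difference of effects gave 371 genes (2.45%), the heart effect 725 (4.78%), the cortex effect 212 (1.40%) and the average effect 651 (4.30%). A threshold of 0.05 passes that share of genes where none has an effect, and each of these shares lies below it. DESeq2 called 0 genes for the difference, 20 for heart, 1 for cortex and 11 for the average, and limma-voom 0, 2, 1 and 3. Without heart control 3 the difference was called for 2 genes, Col2a1 and Scgb3a1, and the heart effect for 24.

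Genes were also sorted by unadjusted p under 0.05, as a description that corrects for no number of tests. A shared effect (same sign, both tissues under 0.05) was found for 20 genes (0.132%), 5 higher and 15 lower in mutants, and 4 of the 15 are Y-linked. An opposite effect was found for 1 gene (0.00660%). A heart-limited effect (heart and difference under 0.05, cortex not) was found for 245 genes (1.62%), 73 higher and 172 lower, and a cortex-limited effect for 58 (0.383%), 16 higher and 42 lower. These numbers moved with single libraries. The heart-limited genes numbered 490 without heart control 2 and 447 without heart mutant 1, and the cortex-limited genes 209 without cortex control 3 and 95 without cortex mutant 2. The shared genes numbered 13 without cortex control 2, 32 without cortex control 3 and 40 without heart control 2. Across the 15157 genes the heart and the cortex effect had a Pearson r of 0.0848 and a Spearman rho of 0.112, and across the 12496 genes with at least 1 CPM (counts scaled to library size) in the controls of both tissues 0.229 and 0.156. Genes are not independent replicates, and this is a description.

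**Figure D1:**
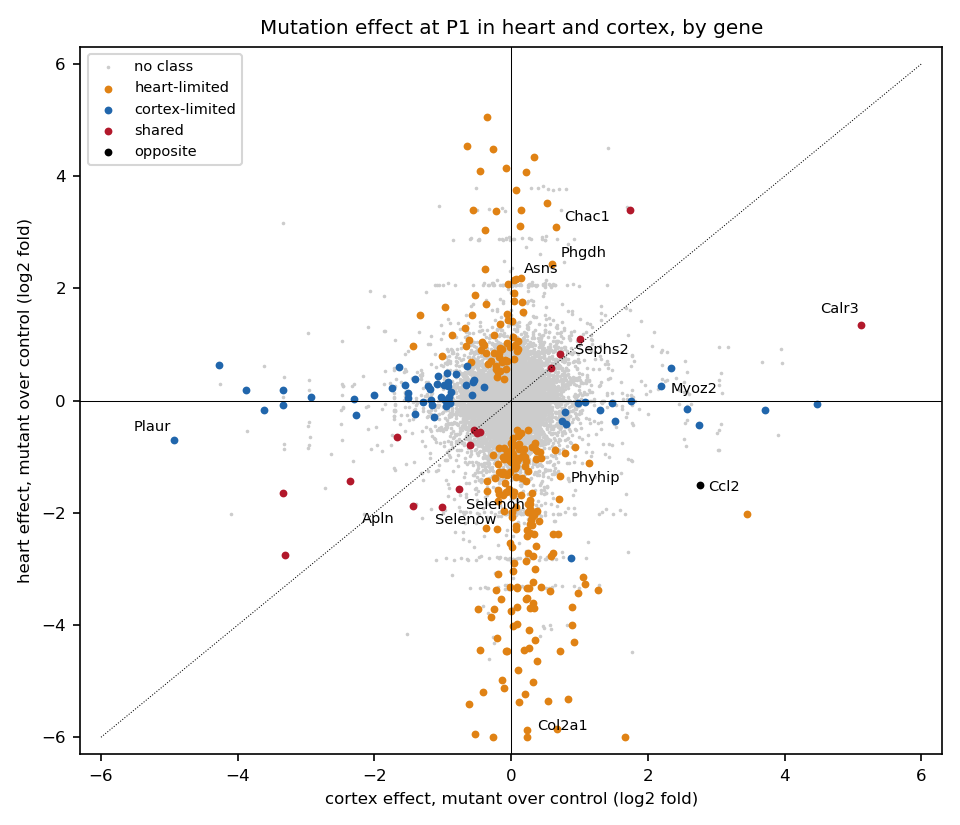
Mutation effect in cortex (horizontal axis) against heart (vertical axis), mutant over control as log2 fold, for each gene tested apart from sex-linked genes. Values beyond 6 are drawn at 6 and the dotted line marks equal effects. Points spread along the axes more than along the dotted line, with 245 heart-limited and 58 cortex-limited genes against the shared ones such as Selenow and Selenoh. Effects of genes with few counts in a tissue, such as Calr3 in cortex, depend on the prior count.

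The 12 libraries held 4836866 to 7239310 counts, so that 1 count is worth 0.138 to 0.207 CPM. They differ in ways that touch these effects. The labels' protocols give TRIzol for heart controls 1 and 2 and all cortex samples. For heart control 3 and the 3 heart mutants they name RNeasy Plus Micro in 1 place and TRIzol in another. The summed level of 8 tested cartilage genes was 186 and 316 CPM in the TRIzol heart controls. It was 25.3 to 44.5 CPM over the mutants and 35.7 CPM in control 3, the RNeasy hearts. That of 7 airway genes was 3589 and 1384 CPM against 282 to 859 and 262. Hopx, at 217 to 350 CPM of total counts in every heart, made up most of the airway sum in control 3 and in mutants 1 and 3. Sftpc, a gene of lung alveoli, was at 293 CPM of total counts in heart mutant 2, an RNeasy heart. The next highest heart was control 1 at 34.9. Lung reads were thus found under both kits, and kit and neighbouring tissue cannot be fully told apart in heart. Heart results are therefore also given without the TRIzol controls (1 control against 3 mutants, called RNeasy hearts here). There the lone control is assumed to vary like the other groups, and mutant 2 with its lung reads is kept. Red-cell genes (14 tested) summed to 20022, 85885 and 26389 CPM in heart controls and 58847 to 71933 in heart mutants, which overlap. Cortex control 1 had 192 CPM of 9 choroid plexus genes against 1045 to 1929 in the other 5 cortex libraries. Y-linked Ddx3y was read in 2 of 3 controls of each tissue and in 0 of 6 mutants (at most 0.486 CPM), so genotype and sex cannot be fully told apart. The tissues matched their labels: 12 cardiomyocyte markers summed to 61014 to 78490 CPM in the 6 hearts and 42.7 to 60.8 in the 6 cortices, and 12 excitatory-neuron markers to 1914 to 3599 CPM in cortex and 155 to 177 in heart. In whole tissue, fewer cells of a type and less RNA per cell cannot be told apart.

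Neither Sepsecs nor Gpx4 had a difference of effects at an unadjusted p under 0.05. Sepsecs (ENSMUSG00000029173) was at 11.0, 15.0 and 11.4 CPM in heart controls and 13.2, 13.4 and 13.4 in heart mutants, and at 8.70, 11.6 and 10.8 and 15.3, 14.7 and 12.2 in cortex controls and mutants. The cortex mutants lay above all cortex controls and the heart groups overlapped, and the difference of effects was −0.35 ± 0.35 (SE; unadjusted p = 0.337). A point mutation need not alter the level of its mRNA, so this does not check the genotype labels. Gpx4, named above, was at 18.5, 15.8 and 22.0 and 13.4, 21.4 and 19.2 CPM in heart controls and mutants and at 7.94, 8.07 and 7.71 and 7.60, 7.28 and 7.03 in cortex, with a difference of effects of 0.04 ± 0.36.

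Selenow and Selenoh fell in heart and in the average over both tissues. Selenow (ENSMUSG00000041571; chromosome 7, 15917208 to 15922402 of GRCm38), a small redox protein of muscle and brain, was at 99.9, 57.4 and 64.4 CPM in heart controls and 18.8, 23.6 and 17.6 in heart mutants. In cortex it was at 116, 141 and 125 CPM in controls and 68.5, 71.3 and 49.7 in mutants. All 3 mutants lay below all 3 controls in each tissue, and the lowest cortex control was above every heart library. The log2 fold was −1.89 ± 0.24 in heart (edgeR adjusted p = 0.0179), −1.01 ± 0.23 in cortex (unadjusted p = 5.36e-04, adjusted p of 1.0) and −1.45 ± 0.17 on average (adjusted p = 0.00463). Selenoh (ENSMUSG00000076437; chromosome 2, 84669215 to 84670770), a nuclear redox protein, was at 68.7, 60.4 and 94.3 CPM in heart controls and 25.3, 27.9 and 21.4 in heart mutants. Its cortex levels were 65.5, 60.8 and 51.6 CPM in controls and 34.9, 32.4 and 37.9 in mutants. The control levels of Selenoh overlapped between the tissues, and heart mutants lay below all cortex mutants. Its log2 fold was −1.58 ± 0.22 in heart (adjusted p = 0.0200), −0.76 ± 0.21 in cortex (unadjusted p = 0.00272) and −1.17 ± 0.15 on average (adjusted p = 0.00973).

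The effect was larger in heart than in cortex for both, by −0.88 ± 0.33 for Selenow (95% confidence interval −1.59 to −0.18) and −0.83 ± 0.30 for Selenoh (−1.47 to −0.19), with unadjusted p = 0.0172 and 0.0149, and neither passed over all genes. Among RNeasy hearts the heart fold of Selenow was −1.72 (adjusted p = 0.122) and that of Selenoh −1.95 (0.0389). Over the 26 alternatives tried the heart fold ran from −2.09 to −1.64 for Selenow and from −1.95 to −1.41 for Selenoh, so that lost calls came with folds of like size. The heart calls of both were lost with each tissue fitted alone (adjusted p = 0.589 and 0.589) and with the level of Xist as a covariate (0.0795 and 0.104). The heart call of Selenow was also lost without heart mutant 1 (adjusted p = 0.141), heart mutant 3 (0.272), cortex control 2 (0.0534) or cortex mutant 1 (0.0509). That of Selenoh was also lost without heart mutant 1 (0.141), heart mutant 3 (0.272), cortex control 2 (0.0666), or cortex mutant 1, 2 or 3 (0.0648, 0.0518 and 0.0549). The average call of Selenow held without any 1 library, and that of Selenoh was lost without cortex control 2 (0.0601), cortex mutant 1 (0.0755), cortex mutant 2 (0.0768) or heart mutant 3 (0.0654).

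The other selenoprotein mRNAs differed in their pattern over the tissues. Of 24 selenoprotein genes 21 were tested, and at an unadjusted p under 0.05 the heart effect gave 1 higher and 4 lower (background 2.03% and 2.75% of all genes), the cortex effect 2 higher and 3 lower (0.449% and 0.950%) and the difference 0 higher and 2 lower (0.990% and 1.46%). Without heart mutant 2 the 4 lower in heart became 7 (444 of 15706 over all genes). The 2 for the difference became 4 without heart mutant 2, heart mutant 3, heart control 1, cortex control 3 or cortex mutant 2. Over all genes the difference was lower for 226 to 400 in these settings, against 221 in the main fit. Gpx1, the main cytosolic glutathione peroxidase, was at 686, 1139 and 719 CPM in heart controls and 372, 717 and 721 in heart mutants, which overlap. In cortex it was at 246, 302 and 291 CPM and 149.8, 111 and 171, with every mutant below every control. Its cortex fold of −0.96 ± 0.27 and heart fold of −0.49 ± 0.27 differed by 0.47 ± 0.38 (95% confidence interval −0.35 to 1.29), so the order was the reverse of that of Selenow and Selenoh and was within its error. Selenok and Selenom, proteins of the endoplasmic reticulum, had a lower level in heart mutants (−0.52 ± 0.17 and −0.71 ± 0.28, unadjusted p = 0.00821 and 0.0224) and cortex folds of −0.03 ± 0.17 and 0.10 ± 0.28. Selenot, another protein of that compartment, had folds of −0.43 ± 0.32 in heart and 0.50 ± 0.31 in cortex (difference −0.94 ± 0.45, unadjusted p = 0.0530). Txnrd1, the cytosolic thioredoxin reductase, had −0.01 ± 0.29 in heart and −0.56 ± 0.29 in cortex. Dio3, which inactivates thyroid hormone, was at 0.756, 4.11 and 2.39 CPM in cortex controls and 12.7, 6.18 and 4.46 in cortex mutants (unadjusted p = 0.0325), and at 0 in 5 of 6 heart libraries. Selenop, the selenium carrier of plasma, had 0.17 ± 0.34 in heart and 0.12 ± 0.35 in cortex, and Gpx3, the secreted peroxidase, −0.94 ± 0.47 and −0.10 ± 0.53. The heart fold of Gpx3 was −0.32 among RNeasy hearts and −1.65 without heart mutant 2, and that of Selenom −0.42 without heart control 1 and −0.43 with Xist as a covariate. Over the 21 genes the median fold was −0.19 in heart and 0.01 in cortex, beside 0.00 and −0.02 over all genes tested.

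Sephs2, which makes the selenium donor that Sepsecs uses and is itself a selenoprotein, was higher in mutants by a like amount in both tissues. It was at 25.2, 19.8 and 24.3 CPM in heart controls and 41.0, 34.0 and 29.1 in heart mutants, and at 27.2, 23.5 and 23.9 and 46.6, 32.1 and 33.3 in cortex controls and mutants. Every mutant lay above every control of its tissue. The folds were 0.59 ± 0.23 and 0.59 ± 0.22 (unadjusted p = 0.0203 and 0.0189), and the 95% confidence interval of their difference ran from −0.62 to 0.62. Of the 15 genes for selenocysteine synthesis and insertion, 2 were higher in heart and 1 in cortex at an unadjusted p under 0.05 (background 2.03% and 0.449%), and 0 were lower in either. The 2 became 0 without heart control 2 or heart mutant 1, 3 without heart control 1 and 1 without each of the other libraries, and 1 was lower in heart without cortex control 1, cortex control 2 or heart control 2.

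**Figure D2:**
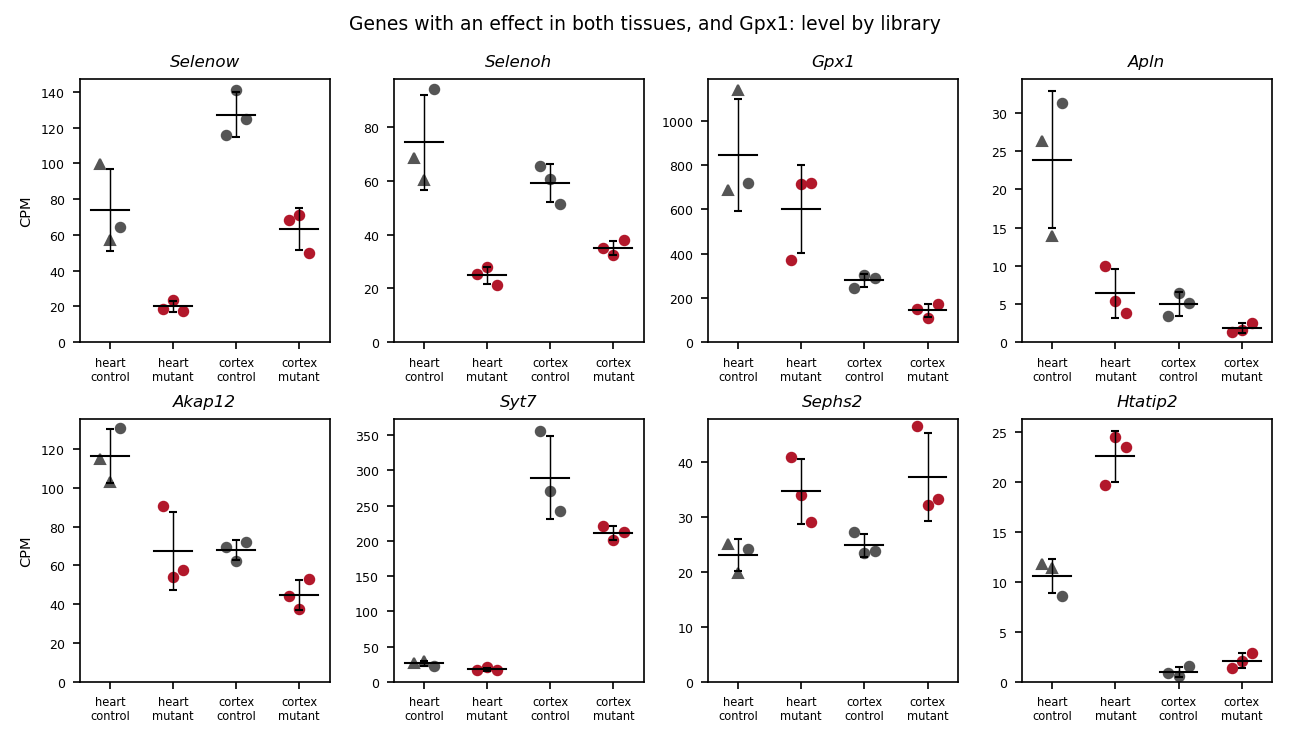
Level in CPM (linear axes from 0) of 7 genes with an effect in both tissues and of Gpx1, by group. Points are libraries (triangles are TRIzol heart controls), the horizontal line is the group mean and the whisker is the SD over 3 libraries. Selenow and Selenoh mutants sit below all controls in both tissues, at 17.6 to 23.6 and 21.4 to 27.9 CPM in heart.

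Of the other shared genes, those with the smallest p of the average effect were as follows. Apln, the peptide ligand of the apelin receptor, which acts on the heart and on vessels, was at 26.4, 13.9 and 31.4 CPM in heart controls and 10.0, 5.34 and 3.85 in heart mutants. In cortex it was at 3.40, 6.46 and 5.18 CPM and 1.39, 1.65 and 2.57, so that the groups were apart in both tissues at very different levels. Its average fold was −1.66 ± 0.31 (adjusted p = 0.217), and its difference −0.46 ± 0.62 had a 95% confidence interval of −1.78 to 0.87. DESeq2 called it for the average (adjusted p = 0.00207), and with the level of Xist as a covariate the fold was −1.04. Akap12, a scaffold for protein kinases A and C, was at 115, 103 and 131 CPM and 90.6, 54.2 and 57.5 in heart controls and mutants, and at 69.7, 62.1 and 72.0 and 44.1, 37.8 and 53.01 in cortex. Every mutant lay below every control of its tissue, with an average fold of −0.69 ± 0.16 (adjusted p = 0.620). Syt7, a calcium sensor of vesicle release, had −0.55 ± 0.20 in heart at a control mean of 26.5 CPM and −0.45 ± 0.19 in cortex at 289.9 CPM, again with no overlap. Eif3j2 met the rule for a shared effect through 1 control in each tissue, at 17.2 CPM in heart control 3 and 14.8 CPM in cortex control 2, while the other 10 libraries lay between 0.275 and 1.51 CPM.

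On the higher side stood a glutathione transferase and a few genes with very unequal levels. Gstm1, which couples glutathione to electrophiles and is a target of the factor NRF2, was at 66.2, 158 and 96.9 CPM in heart controls and 158, 244 and 172 in heart mutants, and at 43.9, 42.1 and 55.6 and 94.6, 45.5 and 93.0 in cortex. The groups touched or overlapped in both tissues, and the split of its reads from near-identical paralogs is uncertain. Htatip2, an oxidoreductase-like protein, was at 11.8, 11.4 and 8.59 CPM and 19.7, 24.5 and 23.5 in heart, and at 0.882, 0.587 and 1.60 and 1.39, 2.06 and 2.92 in cortex. Its heart groups were well apart (1.09 ± 0.32), while the cortex groups overlapped (1.01 ± 0.42). Calr3, a calreticulin known from testis, had 39 counts over 3 heart controls and 91 over 3 heart mutants, and in cortex 0 and 14, at least 4.95-fold higher against a floor of 3 counts over the group. Gabra2, a subunit of the GABA receptor, was at 11.8, 21.6 and 22.5 CPM in cortex controls and 60.1, 78.1 and 48.2 in cortex mutants (1.74 ± 0.31, unadjusted p = 8.72e-05), and DESeq2 (adjusted p = 0.00228) and limma-voom (0.0256) called its cortex effect. In heart it had 0 counts in controls and 3 in mutants, so it met the rule for a shared effect from counts at the floor and no heart fold is given.

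Heart-limited genes included members of the integrated stress response. Of 42 tested genes of that list, 8 were higher and 0 lower in heart at an unadjusted p under 0.05 (background 2.03% and 2.75%), 0 were higher or lower in cortex (0.449% and 0.950%), and the difference was higher for 6 and lower for 0 (0.990% and 1.46%). The median fold was 0.30 in heart, 0.06 in cortex and 0.28 for the difference. Without heart control 2 the 8 became 14, while the count over all genes rose from 308 of 15157 to 546 of 15719. Among RNeasy hearts the heart and difference medians were 0.53 and 0.45. The heart median was 0.19 without heart mutant 2, where 2 were lower, and the difference median 0.16 without heart control 1. In cortex, 3 were higher without cortex control 3 (378 of 15658 over all genes) and 1 without cortex mutant 1 (46 of 15727). Without cortex mutant 3, 1 was lower in cortex (144 of 15636). The 6 for the difference ran from 4 to 7 with 1 library left out. The 6 heart-limited members were Asns, Aldh1l2, Chac1, Mthfd2, Phgdh and Slc7a3.

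ATF4 acts through composite C/EBP-ATF elements, searched here as TGATGNAA on both strands of the RefSeq promoter windows (250 bases before to 50 after the start, GRCm38.p6). A match was found in 10 of the 34 stress-response genes that have a window (29.4%), against 2.68% of 11142 tested genes with a window and 3.97% of all windows. Of the 10, only Asns and Chac1 were heart-limited. The others were Atf3, Gars, Nupr1, Pycr1, Slc1a4, Slc7a11, Trib3 and Vldlr, and the window of Phgdh held no match. The list was chosen as genes of the ATF4 response, so the share describes the list and not the effect of the mutation. Parts of 3 of these windows are printed to show where the letters lie, in lower case with the match in capitals, each 5′ to 3′ on the strand of the gene. A match is a run of letters and not a measured binding site.
Asns, chr6:7693180-7693309, minus strand: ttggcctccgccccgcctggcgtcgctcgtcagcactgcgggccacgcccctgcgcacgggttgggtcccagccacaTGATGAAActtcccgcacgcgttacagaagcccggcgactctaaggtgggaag
Chac1, chr2:119350992-119351141, plus strand: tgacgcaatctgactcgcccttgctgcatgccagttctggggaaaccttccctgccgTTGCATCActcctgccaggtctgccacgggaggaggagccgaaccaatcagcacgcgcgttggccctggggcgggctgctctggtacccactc
Trib3, chr2:152344031-152344160, minus strand: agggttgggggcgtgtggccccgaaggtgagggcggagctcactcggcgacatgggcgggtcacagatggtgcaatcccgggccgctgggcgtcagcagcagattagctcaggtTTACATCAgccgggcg

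Asns (ENSMUSG00000029752; chromosome 6, 7675169 to 7693254), which makes asparagine, was at 3.01, 4.43 and 9.71 CPM in heart controls and 27.2, 17.0 and 32.6 in heart mutants. In cortex it was at 25.8, 23.6 and 25.9 CPM in controls and 29.0, 22.5 and 27.6 in mutants. Heart mutants lay around the level of the 6 cortex libraries, and heart controls below it. The fold was 2.17 ± 0.36 in heart (adjusted p = 0.0991), 0.07 ± 0.33 in cortex, and the difference 2.10 ± 0.49 (unadjusted p = 6.07e-04). Heart control 3, the RNeasy control, was the highest control, and among RNeasy hearts the difference was 1.29, against 2.69 without that library. The heart effect was called by DESeq2 (adjusted p = 1.75e-05), without heart control 3 (0.00181) and without heart mutant 2 (0.0481).

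Of the serine and folate genes of the list, Aldh1l2, Mthfd2 and Phgdh had a like layout, while Psat1 and Shmt2 did not pass an unadjusted 0.05 in either tissue. Aldh1l2, a mitochondrial folate enzyme, was at 9.04, 8.66 and 8.78 CPM in heart controls and 28.8, 12.9 and 29.7 in heart mutants, with cortex controls at 15.0, 18.8 and 14.5 and cortex mutants at 12.7, 19.4 and 14.6. Mthfd2, another enzyme of mitochondrial folate metabolism, was at 15.8, 20.1 and 31.2 CPM and 93.6, 29.9 and 102 in heart and at 15.5, 14.4 and 27.5 and 17.6, 23.9 and 22.6 in cortex. Heart mutant 2 was the lowest mutant for both, and for Mthfd2 it lay below heart control 3. Phgdh, the first enzyme of serine synthesis, was at 1.81, 0.422 and 1.87 CPM in heart controls and 8.43, 4.13 and 10.3 in heart mutants, with cortex means of 4.30 and 6.58. The differences of effects were 1.48 ± 0.43 for Aldh1l2, 1.60 ± 0.56 for Mthfd2 and 1.83 ± 0.75 for Phgdh (unadjusted p = 0.00367, 0.0126 and 0.0271). Among RNeasy hearts they were 1.45, 1.07 and 1.39.

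Chac1, which degrades glutathione, had 6 counts over the heart controls and 50 over the heart mutants, a ratio of 8.79 with a counting interval of 3.77 to 25.1 (95%, exact), and 102 and 147 counts in cortex. Its heart mutants, at 2.86, 3.16 and 3.48 CPM, lay below the cortex mutants at 6.96, 5.77 and 8.58. Trib3, a pseudokinase induced by ATF4 and DDIT3, was at 6.33, 7.81 and 2.80 CPM in heart controls and 13.4, 22.3 and 11.5 in heart mutants, with no overlap (1.47 ± 0.43), and its difference of 0.92 ± 0.70 (95% confidence interval −0.56 to 2.41) left it outside the heart-limited class. Other members did not pass an unadjusted 0.05 in either tissue: Atf4 itself had −0.30 ± 0.21 in heart and 0.02 ± 0.21 in cortex, Ddit3 0.31 ± 0.25 and −0.02 ± 0.25, Psat1 0.01 ± 0.29 and −0.01 ± 0.29, and Shmt2 0.17 ± 0.21 and −0.03 ± 0.21.

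Genes of cholesterol synthesis and its regulation, which the factor SREBP2 induces when membrane sterol is low, stood on the lower side in mutant heart. Of 27 tested, 0 were higher and 9 lower in heart at an unadjusted p under 0.05 (background 2.03% and 2.75%), 0 passed in cortex in either direction (0.449% and 0.950%), and the difference was higher for 0 and lower for 6 (0.990% and 1.46%). The median fold was −0.49 in heart, 0.08 in cortex and −0.54 for the difference. In cortex 16 of 27 had a positive fold, and 13 of these were negative in heart. Without heart mutant 3 the 9 became 5 (378 of 15711 over all genes), and without cortex mutant 1 the 6 became 2 (143 of 15727). Among RNeasy hearts the heart median was −0.54. The heart median was −0.81 without heart mutant 1, and the difference median −0.33 without cortex control 1. With the level of Xist as a covariate 5 were lower and 1 higher in heart (279 and 270 of 15157 over all genes). The heart median was then −0.23 and the median difference −0.60.

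Sqle (ENSMUSG00000022351; chromosome 15, 59315077 to 59331192), squalene epoxidase, was at 25.5, 13.1 and 19.8 CPM and 12.7, 6.80 and 6.23 in heart controls and mutants, and at 74.7, 108 and 146 and 149, 94.6 and 134 in cortex. Msmo1, a sterol demethylase, was at 37.4, 34.4 and 40.3 CPM and 23.7, 17.5 and 16.1 in heart, and at 101, 61.4 and 140.1 and 143, 76.6 and 119 in cortex. Both enzymes had their heart groups apart, at a level well below that of cortex. For Sqle the heart fold was −1.17 ± 0.34 (adjusted p = 0.772), the cortex fold 0.20 ± 0.30 and the difference −1.37 ± 0.46 (unadjusted p = 0.00935, 95% confidence interval −2.34 to −0.39), and among RNeasy hearts the difference was −1.41. Cyp51, another sterol demethylase, and Insig1, which holds back SREBP processing, were also heart-limited, with differences of −0.87 ± 0.34 and −1.26 ± 0.49. Srebf2, the gene of the factor itself, had −0.76 ± 0.22 in heart and −0.16 ± 0.21 in cortex (difference −0.60 ± 0.30, unadjusted p = 0.0632). The letters TCACNCNAC, a form of the sterol regulatory element, were found in 2 of 19 list genes with a promoter window and in 3.21% of tested genes with one.

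**Figure D3:**
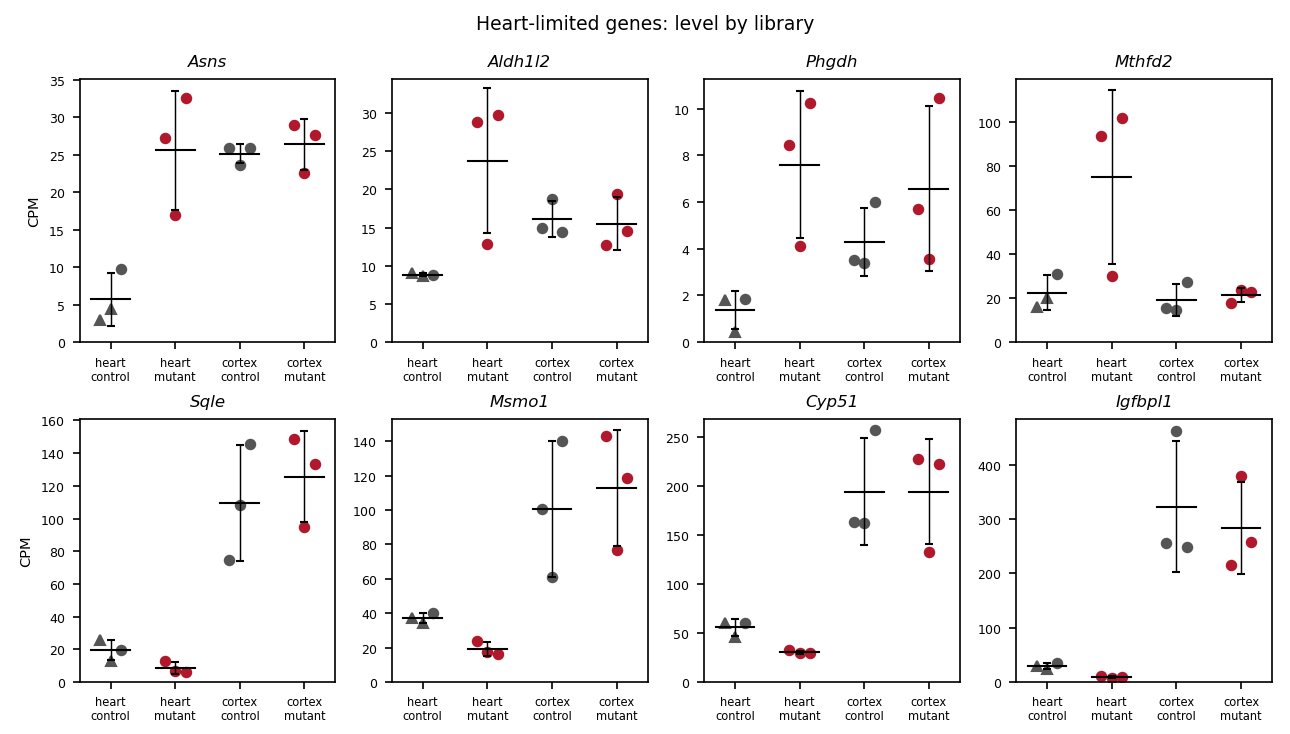
Level in CPM (linear axes from 0) of 8 heart-limited genes by group. Points are libraries (triangles are TRIzol heart controls), the horizontal line is the mean and the whisker the SD over 3 libraries. Asns is at 17.0 to 32.6 CPM in heart mutants and 3.01 to 9.71 in heart controls, while its cortex groups overlap, and Msmo1 is at 16.1 to 23.7 CPM in heart mutants and 34.4 to 40.3 in heart controls.

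Targets of NRF2, the factor that induces enzymes of glutathione and quinone metabolism, were higher in heart for 6 of 28 and lower for 0 at an unadjusted p under 0.05 (background 2.03% and 2.75%), and higher in cortex for 1 and lower for 0 (0.449% and 0.950%). The median fold was 0.29 in heart and 0.00 in cortex, and the difference was higher for 1 gene (0.990%), which ran from 0 to 3 with 1 library left out. Without heart control 1 or heart control 3 or with Xist as a covariate the 6 became 3. Over all genes 431 of 15676, 155 of 15748 and 270 of 15157 were higher in heart there. Among RNeasy hearts the heart median was 0.45. Nqo1, a quinone reductase, was the heart-limited member, at 18.7, 21.1 and 18.1 CPM in heart controls and 34.5, 33.0 and 39.6 in heart mutants. Its cortex levels were 6.55, 6.02 and 7.31 and 8.10, 4.67 and 8.41 CPM, which overlap, and the difference was 0.80 ± 0.36 (unadjusted p = 0.0420). Gsta4, which clears lipid aldehydes, and Me1, which supplies NADPH, had heart folds of 0.81 ± 0.26 and 0.97 ± 0.34 and cortex folds of 0.11 ± 0.30 and 0.10 ± 0.33, and their differences (0.69 ± 0.39 and 0.87 ± 0.48) had unadjusted p = 0.0985 and 0.0873. The letters TGACNNNGC, a form of the antioxidant response element, were found in 10 of 23 list genes with a promoter window and in 16.6% of tested genes with one. They were also found in 10 of 34 stress-response genes and 4 of 19 cholesterol genes with a window. The list was chosen as NRF2 targets, so its share describes the list and not the effect of the mutation.

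Heart-limited genes were mostly genes with a low level in heart. Their median control level was 2.06 CPM in heart and 16.6 CPM in cortex, against 15.5 and 15.9 CPM over all genes tested, and 187 of 245 (76.3%) had the higher control level in cortex, against 50.3% of all genes. Control means reached 1 CPM in both tissues for 44 of the 73 higher and 121 of the 172 lower genes, and in cortex only for 25 and 42, and 103 of the 245 passed the count filter in each tissue by itself. In 139 of 245 the heart groups did not overlap (over all genes 3.31% with mutants above and 3.15% with mutants below), in 186 heart control 3 lay on the control side of all 3 mutants (6895 of 15157 over all genes), and among RNeasy hearts 207 (84.5%) had the same sign, against 77.1% of all genes, and 117 an unadjusted p under 0.05. By selection the class holds genes with a small heart p, so these counts describe its make-up and support nothing.

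The heart-limited genes with the smallest p of the difference included several that are known from neurons or progenitors. Igfbpl1, a binding protein of insulin-like growth factors, was at 29.2, 23.9 and 34.7 CPM in heart controls and 11.8, 7.53 and 8.25 in heart mutants, against cortex means of 322 and 284 CPM (difference −1.48 ± 0.41). Prkar1b, a regulatory subunit of protein kinase A, was at 7.23, 7.18 and 6.91 CPM and 15.4, 15.8 and 9.90 in heart, against 333.9 and 298 in cortex (1.11 ± 0.31). Both had heart groups apart, 1 lower and 1 higher in mutants. Rorb, a nuclear receptor of layer 4 neurons, was at 0.754, 1.06 and 0.747 CPM and 1.43, 3.40 and 2.75 in heart and at 84.6, 39.9 and 35.0 and 30.8, 39.4 and 37.2 in cortex (2.10 ± 0.61). The summed level of 12 excitatory-neuron markers in heart was 165 to 177 CPM in controls and 155 to 176 in mutants, and that of 12 inhibitory-neuron markers 7.28 to 9.92 and 6.23 to 10.7. Cux1, which heart expresses as well, made up 116 to 132 CPM of the first sum, so that sum says little of the other markers. Over the 12 genes of each list the heart median was −0.49 for excitatory-neuron markers, with 1 higher and 1 lower at an unadjusted p under 0.05, and −0.88 for striatum markers, with 11 of 12 negative. The part of neuronal RNA in these heart values was not tested. Nr4a3, an immediate early nuclear receptor, had heart levels of 2.26, 9.92 and 5.42 and 1.11, 1.46 and 2.20 CPM (−1.84 ± 0.48) and a cortex fold of 0.24 ± 0.35. Ung, a DNA repair enzyme of dividing cells, had 58.3, 39.9 and 89.7 and 33.7, 26.0 and 26.2 CPM in heart (−1.13 ± 0.26) and −0.19 ± 0.27 in cortex.

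Col2a1, the main collagen of cartilage, had the smallest p of the difference (−6.10 ± 1.28, unadjusted p = 2.39e-04). It was at 68.1, 138 and 3.55 CPM in heart controls and 2.07, 0.729 and 0.550 in heart mutants, so the TRIzol controls 1 and 2 carried nearly all of its reads. Among RNeasy hearts its difference was −1.86. Of 8 cartilage genes 6 were lower in heart at an unadjusted p under 0.05 (background 2.75%) and 0 in cortex. Among RNeasy hearts 0 of 9 tested were lower, and the heart median moved from −1.76 to −0.19. Genes of ciliated airway cells were also in the class. Foxj1, the regulator of motile cilia, was at 19.6, 5.91 and 0 CPM in heart controls and 0.159, 1.21 and 0 in heart mutants, and Lrrc23, a protein of the cilium, at 12.5, 3.17 and 0.187 and 0, 0.243 and 0.550. In both, the RNeasy control was as low as the mutants. The part of neighbouring tissue in other heart-limited genes was not tested.

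Cortex-limited genes were mostly lower in mutants and mostly better expressed in heart. Their median control level was 2.08 CPM in cortex and 20.8 CPM in heart, and 53 of 58 (91.4%) had the higher control level in heart, against 49.7% of all genes. In 48 of 58 the cortex groups did not overlap (over all genes 2.96% above and 4.00% below), and 32 passed the count filter in each tissue by itself. The 42 lower genes had a median of −1.16 in cortex and 0.17 in heart. The class was chosen on a small cortex p, so these counts too describe its make-up and support nothing.

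Genes of the endothelium, the lining of vessels, formed part of this class. Of 12 tested, 0 were higher and 5 lower in cortex at an unadjusted p under 0.05 (background 0.449% and 0.950%), 0 passed in heart in either direction, and the difference was higher for 4 and lower for 0 (0.990% and 1.46%). The median fold was −0.46 in cortex, 0.02 in heart and 0.48 for the difference, and all 12 cortex folds were negative. The summed level was 372, 300 and 235 CPM in cortex controls and 282, 233 and 163 in cortex mutants, which overlap, and 1779 to 2244 and 1909 to 2080 CPM in heart controls and mutants. Without cortex control 1, the library with few choroid plexus reads, the 5 became 2, the cortex median −0.25 and the difference median 0.18. Without cortex mutant 2 the 5 became 3, without cortex mutant 3 it became 1, and without cortex control 3 it became 9, and with Xist as a covariate 8. Over all genes 203 of 15639, 144 of 15636, 245 of 15658 and 308 of 15157 were lower in cortex there, against 144 of 15157 in the main fit. The 4 for the difference became 1 without cortex control 1, cortex mutant 3, heart control 1 or heart mutant 3 and among RNeasy hearts, and 2 without cortex control 2, cortex mutant 2 or heart mutant 1. Markers of other stromal cells lay on the same side in cortex, with 0 past the threshold. Fibroblast markers had a cortex median of −0.46 with 8 of 10 negative, and summed to 312, 172 and 239.8 CPM in cortex controls and 239, 121 and 175 in cortex mutants. Meninges markers had −0.23 with 9 of 10 negative, at 311, 149 and 211 and then 240.5, 117 and 165 CPM, and smooth muscle and pericyte markers −0.18 with 7 of 10 negative. The part of these cells in the endothelial values was not tested.

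Tie1, a receptor tyrosine kinase of vessels, was at 7.18, 9.69 and 7.04 CPM in cortex controls and 5.44, 4.12 and 1.37 in cortex mutants. In heart it was at 71.0, 78.1 and 60.3 CPM and 71.4, 101 and 85.2, where the groups overlapped. The difference of effects was 1.38 ± 0.45 (unadjusted p = 0.00807, 95% confidence interval 0.42 to 2.35). Tek, the angiopoietin receptor, was at 5.29, 3.96 and 4.25 CPM and 2.41, 3.30 and 1.37 in cortex (difference 0.97 ± 0.41). Emcn, a sialomucin of veins and capillaries, was at 7.18, 5.58 and 4.92 CPM and 4.81, 2.06 and 1.54 (1.10 ± 0.49). Cortex mutant 3 was lowest for Tie1, Tek, Emcn and Robo4, a guidance receptor of vessels (difference 1.19 ± 0.54). Kdr, the main receptor for vascular growth factor, had −0.58 ± 0.22 in cortex, and the pan-endothelial Pecam1 and Cdh5 had −0.39 ± 0.26 and −0.53 ± 0.32. Mmp2, a matrix protease, was at 10.7, 6.16 and 6.11 CPM and 4.81, 3.43 and 3.43 in cortex controls and mutants, with a heart fold of 0.01 ± 0.23 and a difference of 0.98 ± 0.35.

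The lower cortex-limited genes with the smallest p of the difference were of other kinds. Kremen1, a receptor that limits WNT signalling, was at 5.29, 5.72 and 5.85 CPM in cortex controls and 3.42, 2.33 and 3.09 in cortex mutants, and at 42.8, 46.5 and 43.0 and 45.0, 65.6 and 56.1 in heart. Rhog, a small GTPase of cell movement, was at 5.42, 5.14 and 5.32 CPM and 3.17, 1.79 and 3.09 in cortex, and at 28.6, 26.4 and 22.8 and 26.5, 37.9 and 30.1 in heart. For both, the cortex groups were tight and apart and the heart groups overlapped, and the differences were 1.26 ± 0.33 and 1.26 ± 0.38 (unadjusted p = 0.00163 and 0.00467). Among RNeasy hearts they were 1.25 and 1.40.

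**Figure D4:**
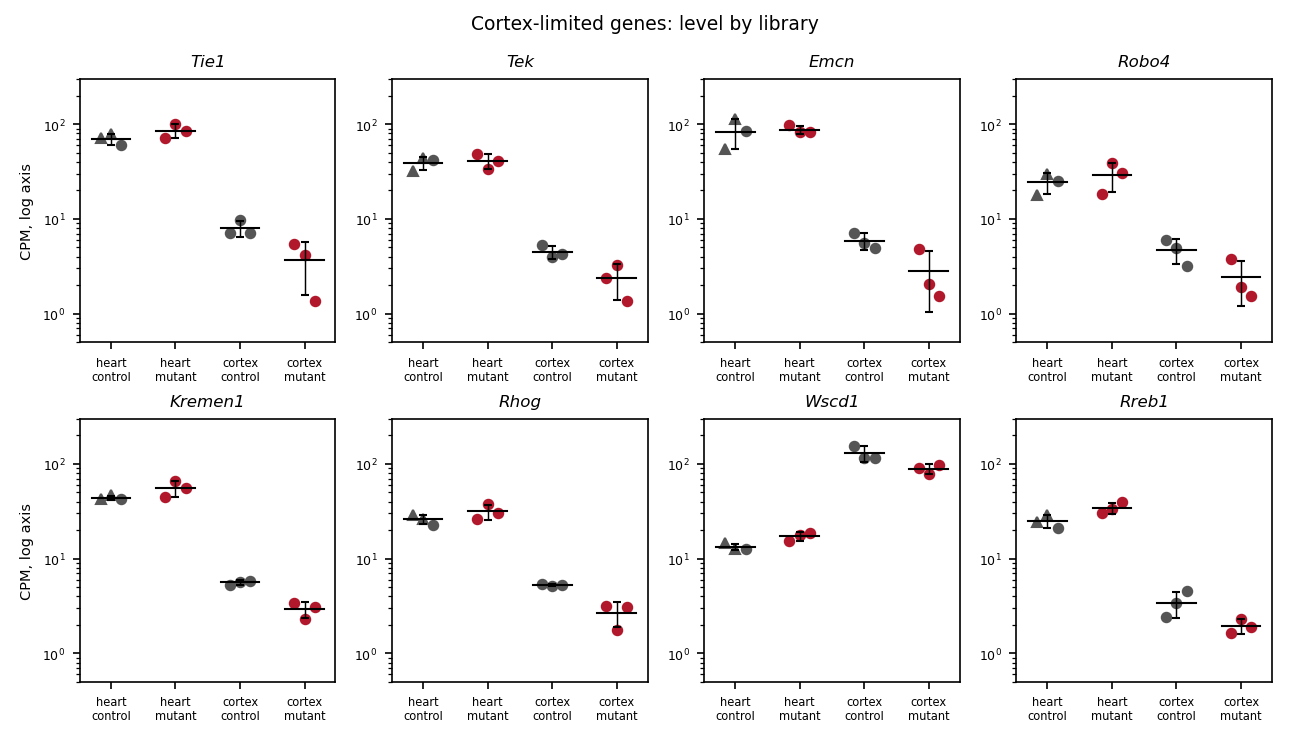
Level in CPM (log axes, the same in each panel) of 8 cortex-limited genes by group. Points are libraries (triangles are TRIzol heart controls), the horizontal line is the mean and the whisker the SD over 3 libraries. Apart from Robo4, whose cortex groups overlap, every cortex mutant lies below every cortex control, as for Kremen1 at 2.33 to 3.42 against 5.29 to 5.85 CPM, and all but Wscd1 have the higher level in heart.

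The 16 higher cortex-limited genes had the higher control level in heart in 15 cases, with a median control level of 0.598 CPM in cortex and 10.2 CPM in heart. Myoz2, a protein of the cardiac sarcomere, had 4 counts over the cortex controls and 19 over the cortex mutants, a ratio of 5.04 with a counting interval of 1.67 to 20.4. Its heart level was 571, 895 and 911 CPM in controls and 819, 1002 and 1022 in mutants. Tnni3, cardiac troponin I, had 27 and 56 counts in cortex controls and mutants. The 12 cardiomyocyte markers as a whole summed to 49.0 to 59.3 CPM in cortex controls and 42.7 to 60.8 in cortex mutants, which overlap. Among members with at least 1 CPM in both tissues, Adi1, an enzyme of methionine salvage, was at 5.29, 6.46 and 4.25 CPM in cortex controls and 10.4, 7.004 and 9.26 in cortex mutants, and at 17.8, 15.2 and 23.5 and 13.7, 16.8 and 13.7 in heart (difference −1.10 ± 0.40). Hmga1, a chromatin protein of growing cells, was at 2.77, 3.96 and 2.53 CPM and 4.81, 4.94 and 6.35 in cortex and at 4.22, 5.07 and 5.60 and 3.34, 3.40 and 4.40 in heart (−1.21 ± 0.50). Astrocyte markers had a median of 0.37 in cortex and −0.27 in heart. In cortex 17 of 18 were positive (7132 of 15157 over all genes), and 13 of these were negative in heart. The markers summed to 1972, 2030 and 3368 CPM in cortex controls and 3351, 2043 and 3615 in cortex mutants, which overlap. The difference passed an unadjusted 0.05 for 1 of them, Fgfr3 (−1.10 ± 0.46, background 1.46% lower). The cortex median was 0.15 to 0.24 without cortex control 1, cortex control 2, cortex mutant 1 or cortex mutant 3, where the difference passed for 0. It was 0.61 without cortex mutant 2 and 0.70 without cortex control 3, where 3 and 9 were higher in cortex and the difference passed for 3 and 6. Over all genes 103 of 15639 and 378 of 15658 were higher in cortex there, and the difference was lower for 234 and 400. In the main fit these numbered 68 and 221 of 15157. Without heart mutant 1 the difference passed for 3 (403 of 15739 lower over all genes). Other brain lists also moved in cortex: hippocampus markers had a median of 0.37 with 10 of 10 positive, and striatum markers 0.24 with 8 of 12. Excitatory-neuron and radial glia markers had cortex medians of −0.28 and −0.09.

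Opposite effects were rare. Ccl2, a chemokine that draws monocytes, was the gene of that class, at 7.69, 4.01 and 11.4 CPM in heart controls and 4.93, 1.94 and 1.10 in heart mutants (−1.51 ± 0.61), where heart mutant 1 overlapped the controls. In cortex it had 1 count over the controls and 9 over the mutants, 6 of these in cortex mutant 1, a ratio of 9.54 with a counting interval of 1.32 to 418. Groups that separated in both tissues, with opposite signs, were found for 19 genes (0.125%), 12 above in heart and below in cortex (0.0792%) and 7 the reverse (0.0462%). In the same direction, 28 genes (0.185%) separated above and 33 (0.218%) below in both tissues. Wscd1, a sulfotransferase-like protein, was at 14.6, 12.7 and 12.7 CPM in heart controls and 15.3, 17.7 and 18.9 in heart mutants, and at 157, 116 and 115 and 89.9, 78.0 and 98.3 in cortex. Rreb1, a zinc finger factor downstream of RAS, was at 24.6, 29.1 and 21.3 CPM and 30.4, 33.8 and 39.4 in heart and at 2.39, 3.38 and 4.52 and 1.65, 2.33 and 1.89 in cortex. Both lay higher in every heart mutant and lower in every cortex mutant, with differences of 0.91 ± 0.28 and 1.27 ± 0.41 (unadjusted p = 0.00529 and 0.00715). Phyhip, a binding partner of phytanoyl-CoA hydroxylase, went the other way, at 8.89, 3.80 and 5.60 CPM and 1.91, 3.64 and 1.83 in heart and 6.55, 10.6 and 12.1 and 22.0, 13.5 and 12.5 in cortex (−2.07 ± 0.58, unadjusted p = 0.00259). Its groups came close, at 3.80 against 3.64 CPM in heart and 12.1 against 12.5 in cortex. By the class rule Phyhip was heart-limited and Wscd1 and Rreb1 cortex-limited, as the effect in the other tissue did not pass an unadjusted 0.05.

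Lists of growth and matrix had medians below 0 in both tissues. Cell-cycle genes had a median of −0.41 in heart and −0.26 in cortex, with 10 of 40 lower in heart at an unadjusted p under 0.05, 0 in cortex and 1 for the difference (background 2.75%, 0.950% and 1.46%). The heart count became 6 without heart control 1, 2 without heart control 3, heart mutant 2 or heart mutant 3, and 17 without heart mutant 1, and the heart median was 0.09 without heart control 3. Over all genes 794 of 15739 were lower in heart without heart mutant 1, against 417 of 15157 in the main fit. In the other settings just named they numbered 378 to 491. The 1 for the difference became 7 without heart mutant 1 (403 of 15739 over all genes) and 3 without heart control 2 (360 of 15719). Among RNeasy hearts the heart median was −1.02 and the difference median −0.79. With the level of Xist as a covariate the heart median was −0.04 with 1 lower (279 of 15157 over all genes). Matrix genes had −0.20 and −0.30, with 2 of 44 lower in each tissue. The heart count became 8 without heart mutant 1, 4 without heart control 3 and 0 without heart mutant 3, and the cortex count 11 without cortex mutant 1, 7 without cortex control 3 and 13 with Xist as a covariate. Over all genes these cortex counts were 138 of 15727, 245 of 15658 and 308 of 15157, against 144 of 15157 in the main fit. Immediate early genes had −0.50 in heart and −0.13 in cortex, with 3 of 27 lower in heart, which became 13 without heart mutant 2, 10 without heart control 1 and 1 without heart mutant 3, and the heart median was −0.01 without heart control 2. Sarcomere genes, the contractile machinery of the heart, had a median of −0.13 in heart with 2 of 35 higher (background 2.03%) and 0 lower. In cortex their median was −0.0014 with 3 higher (background 0.449%) and 0 lower. The difference was higher for 1 and lower for 3 of them (0.990% and 1.46%). Oxidative phosphorylation genes had −0.03 in both tissues with 0 of 52 past the threshold in either.

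**Figure D5:**
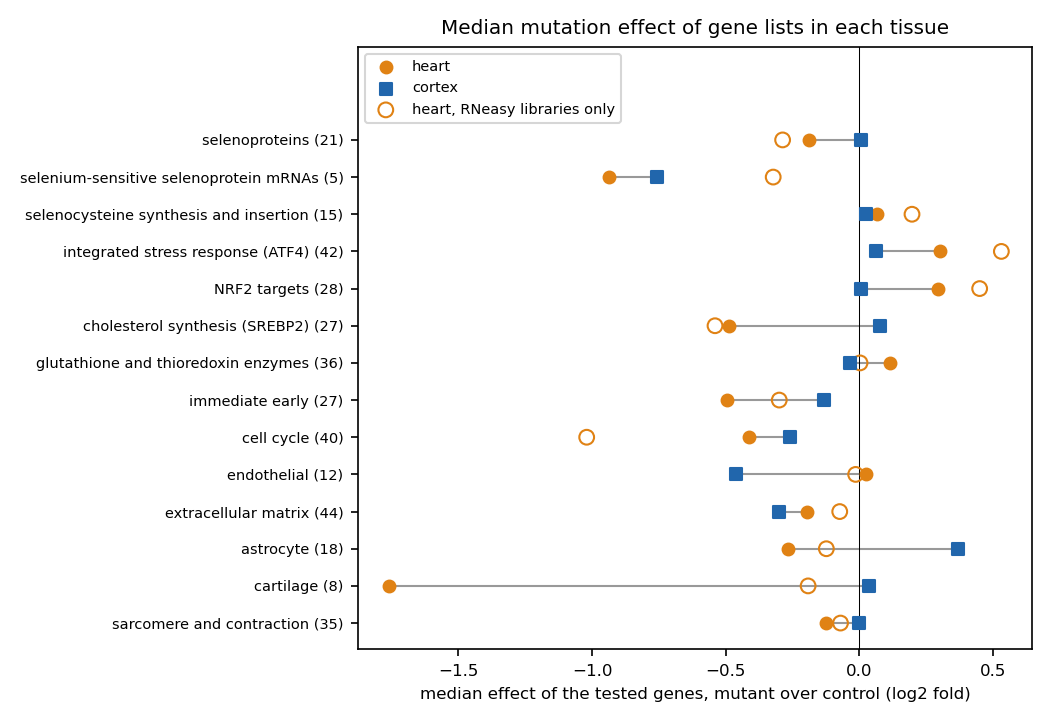
Median mutation effect (log2 fold, mutant over control) of the tested genes of 14 lists, with the number of genes in brackets, in heart (filled circles), cortex (squares) and heart with RNeasy libraries alone (open circles). Stress-response and NRF2 medians are 0.30 and 0.29 in heart and 0.06 and 0.00 in cortex, cholesterol synthesis is −0.49 and 0.08, and the endothelial list is 0.02 and −0.46. The cartilage median moves from −1.76 to −0.19 with RNeasy libraries alone.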

How the data were processed

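Libraries were made from total RNA with a QuantSeq 3′ kit and sequenced on an Illumina HiSeq, per the labels' protocols; STAR and GRCm38 are named in the submitters' processing notes, while the counter, annotation and versions stand as not given in the sources used here. As deposited, the values are raw counts per gene and library (whole numbers, 4836866 to 7239310 in total). Groups follow the labels, and the series' design text speaks of mice. From these counts, edgeR 4.0.16 (R 4.3.3) fitted 1 quasi-likelihood model over the 12 libraries with TMM scaling and its default filter on low counts, and gave the heart, cortex and average effects and the difference, each with Benjamini-Hochberg adjustment over 15157 genes. Log2 folds carry the standard error that the F statistic gives, and fitted folds use the default prior count of edgeR. A prior count of 2 went only into log2 CPM, as used for the Xist covariate and the residuals. CPM are TMM-scaled; counting intervals are exact, at 95%, and cover counting error only. With 3 libraries a group, p-values of single genes rest on the spread shared across genes. DESeq2 1.42.0, limma-voom (limma 3.58.1), other scalings and filters, covariates and leaving out each library were alternatives, and the model was tested on simulated data. Coordinates are those of GENCODE M21, of GRCm38. Named by rule were Sepsecs, Gpx4, selenoproteins, up to 6 genes of lowest p per class and direction, and up to 3 per list with the smallest p of the difference; not every gene so named is reported here. Other list members (Mthfd2, Phgdh, Slc7a3, Trib3, Atf4, Ddit3, Psat1, Shmt2, Cyp51, Insig1, Srebf2, Gsta4, Robo4, Kdr, Pecam1 and Cdh5) and Scgb3a1 were chosen after their values were seen. The members and lists were chosen with earlier results of these data known.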

Additional observations from a re-analysis of the deposited data

Results flagged for a closer look

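In 3 named genes every heart mutant lay on one side of the heart controls and every cortex mutant on the other side of the cortex controls. The difference of the heart and cortex log2 folds was −2.07 for Phyhip (lower in heart, higher in cortex), 0.91 for Wscd1 and 1.27 for Rreb1 (higher in heart, lower in cortex). The test of the difference itself gave unadjusted p = 0.00259, 0.00529 and 0.00715, and none of the 3 passed the adjustment over all genes. By the class rule Phyhip was heart-limited and the other 2 cortex-limited, so none of the 3 was in the opposite class. Separation with opposite signs was found in 0.125% of all genes.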

How the results depend on the processing

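Genes called for the difference numbered 42 with no filter on low counts (36 of them among the 15157 tested above) and 0 to 2 with 1 library left out. For heart (2) they numbered 163 with no filter, 20 with DESeq2, 0 with each tissue fitted alone, 1 with the level of Xist as a covariate, 1 with the extraction kit as a factor, 1 with RNeasy hearts alone, 4 at an adjusted p under 0.10, and 0 to 24 with 1 library left out. For cortex (0) they numbered 18, 1 with DESeq2, 1 with limma-voom and 1 with Xist, and for the average (2) 94, 11 with DESeq2, 1 with Xist, and 1 to 7 with 1 library left out. The cause was not tested.

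Shared genes (20) numbered 84 with no filter, 40 with limma-voom, 83 with Xist, 32 with RNeasy hearts, 6 at an unadjusted p under 0.01, and 13 to 40 with 1 library left out. Opposite genes (1) numbered 30, 7 with limma-voom, 3 with the kit, 6 with RNeasy hearts, 0 among genes measured in both tissues, 0 at p under 0.01, and 0 to 14 with 1 library left out (14 without cortex control 3). Heart-limited genes (245) numbered 525 with no filter, 111 among genes measured in both tissues, 494 with the kit, 611 with RNeasy hearts, 46 at p under 0.01, and 188 to 490 with 1 library left out. Cortex-limited genes (58) numbered 150, 34, 116 with limma-voom, 118 with Xist, 38 with the kit, 8 at p under 0.01, and 45 to 209 with 1 library left out. Of the heart-limited genes 100 were still in the class with RNeasy hearts, 148 with Xist, 218 with DESeq2 and 98 with limma-voom, and of the cortex-limited genes 28, 42, 45 and 42.

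The main fit did not use the replicate numbers as pairs. Y-linked Ddx3y was at 29.4 CPM in heart control 1 and 0.126 in cortex control 1. It was at 0.211 CPM in heart control 2 and 76.8 in cortex control 2. For these 2 numbers heart and cortex were thus not from the same mouse. Same-numbered residuals correlated at −0.10 to 0.16 between heart controls and mutants, against −0.37 to 0.36 for different numbers. In cortex they correlated at 0.09 to 0.42, against −0.35 to 0.12 for different numbers, and between the tissues below 0. What the cortex numbers mark was not tested. With the replicate block within tissue the heart effect was called for 10 genes, the cortex effect for 2, the average for 7 and the difference for 0, and opposite genes numbered 0. With Xist as a covariate the average calls of Selenow and Selenoh were lost (adjusted p = 0.164 and 0.203) at folds of −1.25 and −1.09, and their heart calls at −1.69 and −1.50. With each tissue fitted alone their heart folds were −1.91 and −1.60. The heart call of Selenow was lost with the kit (adjusted p = 0.221, fold −1.69) and that of Selenoh with the block (0.0513, −1.56).

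Signs turned for 3 of the genes given above. The heart fold of Foxj1 was 4.37 with the kit and 4.35 with RNeasy hearts, where the control is at 0, and that of Lrrc23 0.41 and 0.38. The difference of Gpx4, near 0, was −0.00576 without haemoglobin and mitochondrial genes, −0.00963 with no filter, −1.50e-04 with DESeq2, −0.0155 with limma-voom, −0.18 with the kit, −0.23 with RNeasy hearts and −0.14 to 0.16 with 1 library left out. At 1 count for 0.138 to 0.207 CPM, effects of genes near 1 CPM in a tissue rest on few counts.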
